A study of Chlamydomonas reinhardtii with 5 samples.

Results

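The transcriptome of C. reinhardtii cells after γ-irradiation at 50 Gy (GR50) was set directly against that after X-irradiation at the same dose (XR50), to find out how far the 2 radiation types differed at this dose. Both RNA-Seq libraries, 2 of the 5 in the series, were taken by their labels. The others were γ-ray and X-ray libraries at 6 Gy (GR6 and XR6) and an unirradiated mock. All cells were WT of strain CC-125, grown mixotrophically in TAP medium under constant white light and irradiated in mid-exponential phase. In the γ-ray groups, cells were left at culture density in large conical tubes and faced a cobalt source for 1 h. In the X-ray groups, cells were concentrated into small microcentrifuge tubes and exposed in a cabinet for 8.1 min at 50 Gy, or for 22.2 min at a lower tube current at 6 Gy. Radiation type, tube, cell density and duration therefore changed together and cannot be told apart. How the mock was handled is not given in the sources used here. Each condition was represented by 1 column of counts, without replicates. Consequently, no p-value is given, and every interval covers counting error alone.

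Both radiation types ionize water and DNA and leave oxidized bases, single-strand breaks and double-strand breaks. Single-stranded DNA at such lesions is coated by replication protein A, and broken ends are held by Ku for end joining. Plant and algal cells answer by transcribing genes of this repair machinery together with antioxidant enzymes. C. reinhardtii also changes its transcriptome quickly with light, CO2 and oxygen, which depend on how densely cells are kept and in what vessel.

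Reads counted on genes amounted to 20330055 in GR50 and 19893156 in XR50, and to between 18364833 and 19267141 in the other libraries. Of 17742 ORFs, 13997 had a mean of at least 10 counts over GR50 and XR50 and were compared. Counts were scaled with TMM, a factor that centres the bulk of the genes, so that the values are relative levels: a change in RNA per cell that is shared by most genes cannot be seen. The labels of type and dose could not be checked with independent genes, because the ORFs with known names had been picked by the study from these libraries. The reference annotation gave 0 gene symbols beyond the ORF name, so that functions are stated for 14 ORFs with known names and for no other gene.

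The 2 libraries at 50 Gy differed in both directions, with more genes on the γ-ray side. GR50 was more than 2-fold higher than XR50 in 1618 genes (11.6% of those compared) and more than 2-fold lower in 1048 genes (7.49%). Genes higher in GR50 thus made up 60.7% of these. The median log2 ratio of GR50 over XR50 was 0.00, the quartiles were -0.43 and 0.50, and the root mean square was 0.87. The upper tail was the longer one, with 2.59 at percentile 99 against -2.10 at percentile 1. Larger differences were less frequent and leaned further to the γ-ray side: 346 genes were more than 4-fold higher and 167 lower, 74 were more than 8-fold higher and 33 lower, and 22 were more than 16-fold higher and 9 lower. The threshold divided a dense range, because 225 genes lay within 0.1 above a log2 ratio of 1 and 277 within 0.1 under it. On the lower side, 210 genes lay just past a log2 ratio of -1 and 256 just short of it.

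**Figure D1:**
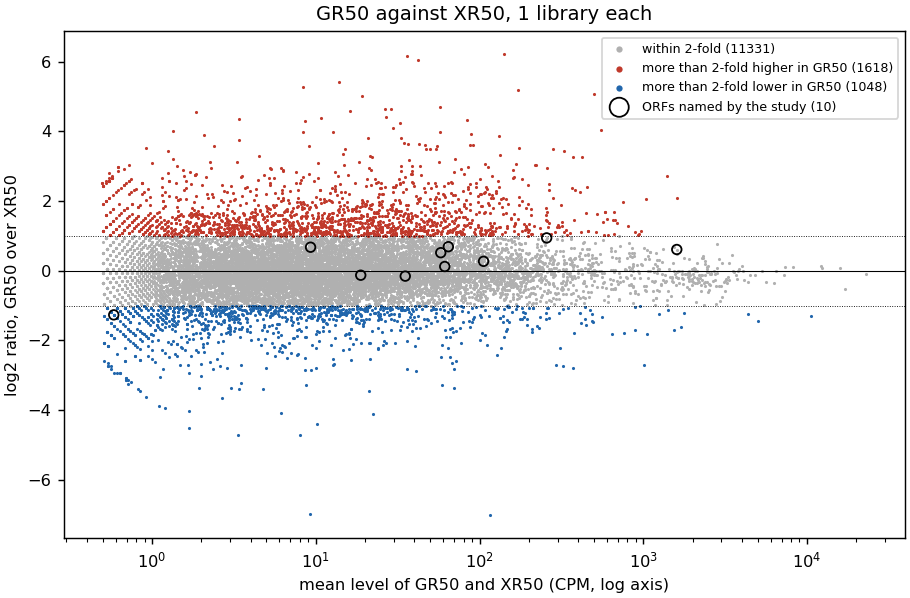
Log2 ratio of GR50 over XR50 (vertical axis) against the mean level of both libraries (counts per 1000000 reads, CPM, on a log axis) for 13997 genes, with 1 library per condition. Red points mark 1618 genes more than 2-fold higher in GR50, blue points 1048 genes more than 2-fold lower, and circles the 10 ORFs named by the study, which lie between -1.27 and 0.94.

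Counting error alone was small against these differences for well-expressed genes. With the whole 95% interval required to pass 2-fold, 859 genes were higher (6.14%) and 401 were lower (2.86%) in GR50. Among genes with a mean of 10 to 50 counts, 385 were higher and 399 lower by the point ratio, which left no lean to either side, but the whole interval passed 2-fold in only 62 and 72 of these. From 1000 to 5000 counts, by contrast, 259 genes were higher and 101 lower, and 228 and 78 of them passed with the whole interval. The lean toward the γ-ray side was therefore found in genes above this lowest class. At or above a mean of 5000 counts, 60 genes were higher and 37 lower.

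The genes higher in GR50 took up 10.8% of the reads on genes in GR50 and 3.35% in XR50. Their share was 6.97% in GR6, 4.34% in XR6 and 3.29% in the mock, which did not enter the choice of these genes. The genes lower in GR50 held 3.34% of the reads in GR50 and 8.61% in XR50. In the remaining libraries they held 4.11% in GR6, 8.75% in XR6 and 7.28% in the mock. For both sets, the share in XR50 was thus nearer to that in the mock than the share in GR50 was. Of the 10 genes with the most counts, with means from 127628 to 457305, only CHLRE_01g044800v5 passed 2-fold. This ORF, named here after its values were seen, lies on chromosome 1 from 6257324 to 6267945. It had 125035 counts in GR50 and 291888 in XR50, 137585 in GR6 and 288160 in XR6, and 241254 in the mock. Its log2 ratio was -1.30 (95% interval -1.31 to -1.29) at 50 Gy and -1.02 at 6 Gy, so that both γ-ray libraries were low and both X-ray libraries lay near the mock.

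Some genes were near silence in one library. XR50 had at most 3 counts for 25 of the genes higher in GR50, where GR50 had between 17 and 74 counts. GR50 had at most 3 counts for 24 of the genes lower in GR50, where XR50 had between 17 and 360 counts. A count of 3, which corresponds to 0.149 CPM in GR50 and 0.154 CPM in XR50, was taken as the floor, and these ratios are bounds computed against it. The bounds ran from 2.43 to 4.55 on the log2 scale for the higher genes. At 6 Gy, 21 of the 24 lower genes were also lower in GR6 than in XR6, and 11 of the 21 higher genes with a ratio were also higher in GR6. Of all genes, 51.1% were lower and 48.9% higher in GR6, so that the higher genes near silence were at the share of all genes.

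Of the genes whose mean reached 50 counts, the 10 with the highest lower limit of the interval had log2 ratios from 4.65 to 6.22. Their median level was 77.1 CPM in GR50 and 1.69 CPM in XR50, 9.67 CPM in GR6 and 2.31 CPM in XR6, and 2.32 CPM in the mock. By their medians, these genes were thus scarce in the mock and in both X-ray libraries. The 10 genes at the other end had ratios from -7.00 to -3.28. Their median level was 1.39 CPM in GR50 and 29.1 CPM in XR50, 2.44 CPM in GR6 and 49.5 CPM in XR6, and 28.5 CPM in the mock. By their medians, those were lower after γ-irradiation at either dose than in the mock, while the X-ray libraries were at or above it. All 10 higher genes and all 10 lower genes differed more than 2-fold in the same direction at 6 Gy. Of all genes compared, 7.25% were more than 2-fold higher and 8.03% more than 2-fold lower in GR6 than in XR6. The median at 6 Gy was 2.18 for the higher genes and -4.18 for the lower genes, so that the lower genes were about as far apart at 6 Gy as at 50 Gy, where their median was -4.25. The higher genes were further apart at 50 Gy, with a median of 5.23. Both sets were picked by their intervals at 50 Gy, which favours larger ratios at that dose. An effect of dose on the ratio was therefore not tested with these genes.

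The first 2 ORFs of each kind are described singly. CHLRE_02g095151v5 (chromosome 2, 3654626 to 3662892) had 5626 counts in GR50 and 72 in XR50, 1677 in GR6 and 276 in XR6, and 171 in the mock. Its log2 ratio was 6.22 (5.88 to 6.57) at 50 Gy, a 74.3-fold difference, and 2.65 (2.47 to 2.84) at 6 Gy. XR50 was the lowest of all libraries for this gene, below the mock. CHLRE_13g569450v5 (chromosome 13, 1121166 to 1126227) had 1435 counts in GR50 and 19 in XR50, 1241 in GR6 and 65 in XR6, and 86 in the mock. The log2 ratio of CHLRE_13g569450v5 was 6.17 (5.52 to 6.90) at 50 Gy and 4.30 (3.94 to 4.69) at 6 Gy. Here the γ-ray libraries were alike at both doses and XR50 was lower than XR6.

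On the lower side, CHLRE_03g169550v5 (chromosome 3, 3722161 to 3726636) had 37 counts in GR50 and 4517 in XR50, 56 in GR6 and 6243 in XR6, and 5110 in the mock. This is a log2 ratio of -7.00 (-7.51 to -6.54) at 50 Gy and -6.75 (-7.16 to -6.37) at 6 Gy. CHLRE_03g162800v5 (chromosome 3, 2885264 to 2887871) had 0 counts in GR50 and 360 in XR50, 10 in GR6 and 450 in XR6, and 445 in the mock. Against the floor of 3 counts, CHLRE_03g162800v5 was at least 126-fold lower in GR50 than in XR50, and it was 43.5-fold lower in GR6 than in XR6. Both genes were close to the mock after X-irradiation at either dose and almost lost after γ-irradiation at either dose.

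**Figure D2:**
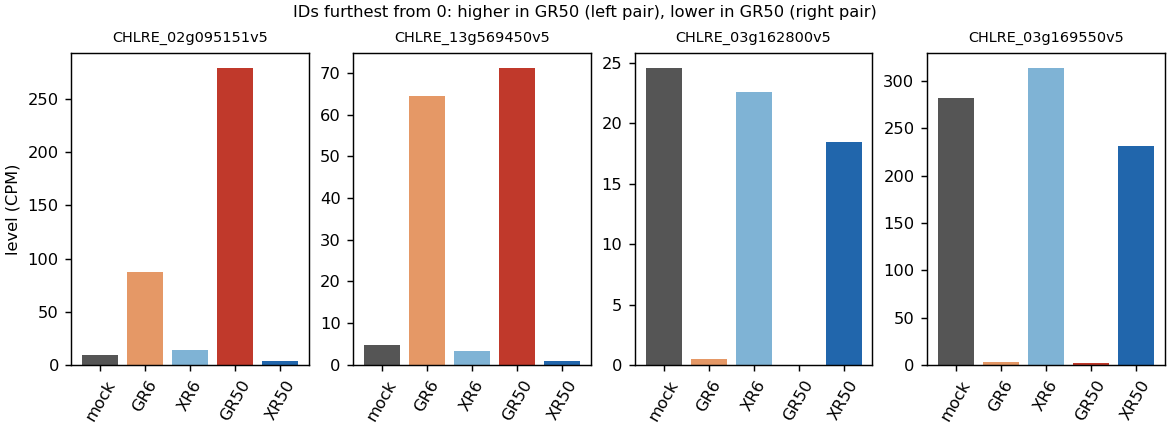
Levels in CPM (vertical axis, from 0) of 4 ORFs in the mock, GR6, XR6, GR50 and XR50, 1 library each, scaled with TMM over the 5 libraries. The left pair is high in GR50 (279 and 71.2 CPM) against XR50 (3.69 and 0.973 CPM), and the right pair is at 0 and 1.84 CPM in GR50 against 18.4 and 231 CPM in XR50.

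GR6 and XR6 share no library with GR50 and XR50 and were not used to choose the genes. The same contrast was therefore read again at 6 Gy, where tubes and cell density differed between the types in the same way. Dose rates were not the same as at 50 Gy, because both γ-ray doses took 1 h and the X-ray doses were given at different tube currents. Of the genes higher in GR50, 1607 had a ratio at 6 Gy, and 75.1% of these were higher in GR6 than in XR6, against 48.9% of all genes compared. More than 2-fold higher were 28.1%, against 7.25% of all genes. Of the 1047 genes lower in GR50 with a ratio at 6 Gy, 85.2% were lower in GR6, against 51.1% of all genes, and 37.7% were more than 2-fold lower, against 8.03%. The median ratio at 6 Gy was 0.50 for the higher genes and -0.75 for the lower genes, smaller than their medians of 1.42 and -1.32 at 50 Gy. Because the genes were chosen by their ratio at 50 Gy, smaller medians at 6 Gy are favoured by the choice itself. Over all genes, the root mean square was 0.87 at 50 Gy and 0.77 at 6 Gy. Whether the difference between the types grew with dose was not tested.

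The larger the difference at 50 Gy, the larger it was at 6 Gy. Genes 2-fold to 4-fold higher in GR50 had a median of 0.43 at 6 Gy, those 4-fold to 8-fold higher 0.83, those 8-fold to 16-fold higher 1.34, and the 22 genes beyond 16-fold 2.14. On the lower side, the medians were -0.66, -1.63, -2.07 and -4.38 in the same classes. In the last class of lower genes, 9 of 9 were more than 2-fold lower in GR6 than in XR6, and in the last class of higher genes 16 of 22 were more than 2-fold higher. Across 13979 genes, which are not independent replicates, the ratios at both doses were correlated with Pearson's r at 0.48 and Spearman's rho at 0.39. Where the mean reached 50 counts in both pairs (10474 genes), r was 0.57 and rho 0.45.

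**Figure D3:**
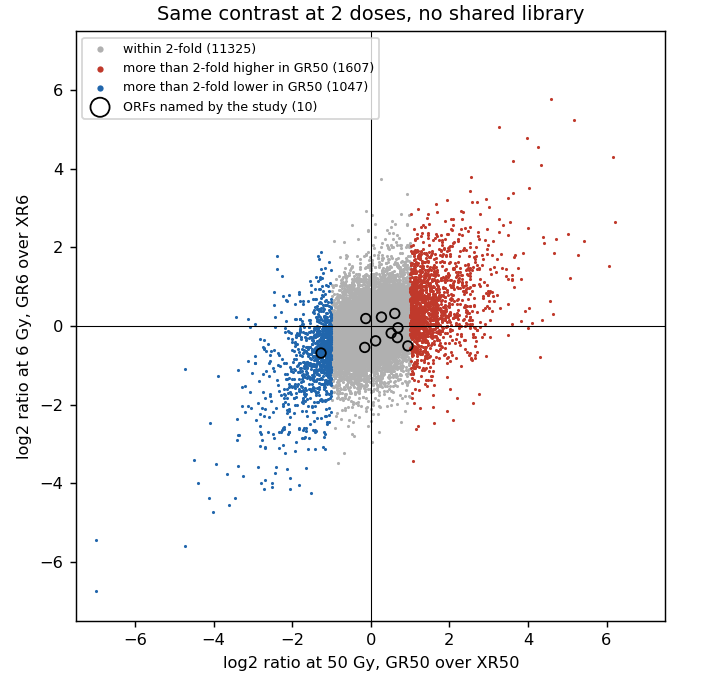
Log2 ratio of GR6 over XR6 (vertical axis) against that of GR50 over XR50 (horizontal axis), 1 point per gene, with genes more than 2-fold higher in GR50 in red and more than 2-fold lower in blue. Of the red genes 75.1% lie above 0 at 6 Gy and of the blue genes 85.2% lie under it, while the 10 circled ORFs named by the study lie on both sides.

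The genes fell into 2 main patterns on each side. In the first, the types differed at both doses. It held 452 genes that were more than 2-fold higher after γ-rays at 6 and at 50 Gy, 27.9% of those higher in GR50. Their median level was 22.5 CPM in GR50 and 5.61 CPM in XR50, 20.3 CPM in GR6 and 5.78 CPM in XR6, and 8.10 CPM in the mock. The corresponding 395 genes on the lower side, 37.7% of those lower in GR50, had a median of 3.47 CPM in GR50 and 11.6 CPM in XR50, 3.64 CPM in GR6 and 13.4 CPM in XR6, and 10.6 CPM in the mock. In both groups, the medians of each radiation type were similar at the 2 doses. The choice asked for more than 2-fold at both doses, which itself favours a similar gap between the types. An effect of dose was therefore not tested with these genes. For the lower group the mock lay near the X-ray libraries, and for the higher group it lay between the types, nearer to the X-ray libraries. Whole intervals passed 2-fold at 50 Gy for 859 higher and 401 lower genes, and at both doses for 209 and 171 of these. Of all genes, 2.98% and 2.76% had the whole interval past 2-fold on these sides at 6 Gy.

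In the second pattern, the types differed more than 2-fold at 50 Gy and less at 6 Gy. It held 1101 genes higher in GR50, with a median of 15.8 CPM in GR50 and 5.79 CPM in XR50, 7.74 CPM in GR6 and 6.53 CPM in XR6, and 5.69 CPM in the mock. That GR50 lay apart from XR50 while GR6 lay near XR6 follows from how these genes were chosen. The mock did not enter the choice, and its median was nearest to XR50 and furthest from GR50. The second pattern also held 630 genes lower in GR50. Their median was 2.01 CPM in GR50 and 5.04 CPM in XR50. It was 3.22 CPM in GR6, 4.10 CPM in XR6 and 4.37 CPM in the mock. Opposite differences of more than 2-fold at the 2 doses were less frequent than the shares of all genes at 6 Gy. Higher in GR50 but lower in GR6 were 54 genes. They made up 3.36% of the higher genes with a ratio at 6 Gy, against 8.03% of all genes. Lower in GR50 but higher in GR6 were 22 genes. They made up 2.101% of the lower genes with a ratio at 6 Gy, against 7.25% of all genes. The 54 and 22 genes had few reads, with median mean counts of 28.2 and 17 at 50 Gy. Their whole intervals passed 2-fold at both doses for 2 and for 0 of them.

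Of the 14 named ORFs, 10 had enough counts to be compared. The study had listed them from these libraries for their change against the mock after both radiation types, and they hold genes of DNA repair beside others such as CrLHL4 and CrEFP2. It also measured 6 of the 10 by RT-qPCR in independent experiments: CrRPA30, CrFEN1, CrKU, CrOASTL2, CrGSTS2 and CrRPA70A. The study reported that radiation type rarely affected the RT-qPCR levels of its genes. Of the 10, 0 were more than 2-fold higher in GR50 than in XR50, against 11.6% of all genes. More than 2-fold lower was 1, with an interval that held 0, against 7.49% of all genes. For 10 ORFs, both counts are near the shares of all genes. The interval lay above 0 for 7 of the 10, against 31.1% of all genes, and under 0 for 0 of the 10, against 29.4% of all genes. Such intervals are narrower, and leave out 0 more readily, in genes with many reads. The median log2 ratio of the 10 was 0.40. At 6 Gy, the interval of GR6 over XR6 lay above 0 for 2 of the 10, against 29.1% of all genes, and under 0 for 3, against 28.7%, shares near those of all genes. The median at 6 Gy was -0.24.

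Among the genes acting on single-stranded DNA, CrRPA70A (CHLRE_17g718850v5), the large subunit of replication protein A, had 6862 counts in GR50 and 3391 in XR50, 1080 in GR6 and 1588 in XR6, and 107 in the mock. Its log2 ratio of γ-ray over X-ray was 0.94 (0.88 to 1.00) at 50 Gy, the highest of the 10, and -0.51 (-0.62 to -0.40) at 6 Gy. The order of the types was thus opposite at the 2 doses, each beyond counting error. CrRPA30 (CHLRE_02g100000v5), a smaller subunit of the same complex, had 2353 counts in GR50 and 1853 in XR50, 670 in GR6 and 592 in XR6, and 106 in the mock. The γ-ray side of CrRPA30 was slightly higher at either dose, by 0.27 (0.18 to 0.36) at 50 Gy and 0.23 (0.07 to 0.39) at 6 Gy. Subunits of one complex hence differed in the size of their ratio at both doses, and in its direction at 6 Gy.

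For double-strand break repair, CrKU (CHLRE_10g423800v5), the end-binding protein of end joining, had 1387 counts in GR50 and 920 in XR50, 365 in GR6 and 428 in XR6, and 44 in the mock. Its ratio was 0.52 (0.40 to 0.64) at 50 Gy and -0.18 (-0.39 to 0.02) at 6 Gy. CrKU was thus 1.43-fold higher in GR50, while the interval at 6 Gy held 0.

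CrFEN1 (CHLRE_03g145687v5), a flap nuclease of the Rad2 family that trims DNA ends during replication and base excision repair, went another way. It had 678 counts in GR50 and 717 in XR50, 167 in GR6 and 252 in XR6, and 64 in the mock. Its ratio was -0.15 (-0.31 to 0.00) at 50 Gy and -0.55 (-0.84 to -0.26) at 6 Gy, so that the X-ray side was higher at 6 Gy and the types were within counting error at 50 Gy. The next annotated gene, CHLRE_03g145707v5, named after its values were seen, starts 2 bp further on. It had 130 counts in GR50 and 6 in XR50, 13 in GR6 and 12 in XR6, and 3 in the mock, a ratio of 4.37 (3.204 to 5.84) at 50 Gy and 0.16 (-1.09 to 1.43) at 6 Gy. The annotated genes do not overlap, but the counting is not stated to use strand. How reads near their border were assigned is therefore not known.

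CrRIR2B (CHLRE_12g509400v5), the small subunit of ribonucleotide reductase that supplies deoxynucleotides, had 1617 counts in GR50 and 952 in XR50, 652 in GR6 and 696 in XR6, and 228 in the mock. Its ratio was 0.69 (0.58 to 0.81) at 50 Gy and -0.05 (-0.20 to 0.11) at 6 Gy. CrEFP2 (CHLRE_06g263050v5), a mitochondrial elongation factor P, had 232 counts in GR50 and 138 in XR50, 52 in GR6 and 66 in XR6, and 23 in the mock, with a ratio of 0.68 (0.37 to 0.99) at 50 Gy. For both, GR50 was the highest library and the 6 Gy libraries did not differ beyond counting error.

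Of the sulfur and detoxification enzymes, CrGSTS2 (CHLRE_16g682725v5), a glutathione S-transferase, was by far the one with the most reads among the 10. It had 39318 counts in GR50 and 24475 in XR50, 9925 in GR6 and 8231 in XR6, and 3212 in the mock. Its ratio was 0.61 (0.59 to 0.63) at 50 Gy and 0.32 (0.28 to 0.36) at 6 Gy, so that the γ-ray side was higher at either dose. CrOASTL2 (CHLRE_16g664250v5), a cysteine synthase, had 1300 counts in GR50 and 1135 in XR50, 346 in GR6 and 465 in XR6, and 95 in the mock. The ratio of CrOASTL2 was 0.12 (0.01 to 0.24) at 50 Gy, barely beyond counting error, and -0.38 (-0.58 to -0.17) at 6 Gy. CHLRE_16g664301v5, named after its values were seen, begins 160 bp from it. That neighbour had 6702 counts in GR50 and 2705 in XR50, 1066 in GR6 and 1750 in XR6, and 30 in the mock, with ratios of 1.24 (1.17 to 1.30) at 50 Gy and -0.67 (-0.78 to -0.56) at 6 Gy. The order of the types was again opposite at the 2 doses.

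The remaining ORFs showed no difference between the types beyond counting error at 50 Gy. CrLHL4 (CHLRE_17g740950v5), a light-inducible LHC-like protein, had 366 counts in GR50 and 380 in XR50, 397 in GR6 and 360 in XR6, and 831 in the mock. All 4 irradiated libraries were at a similar level under the mock, with a ratio of -0.13 (-0.34 to 0.08) at 50 Gy. The histone H3 gene CrHTR2 on chromosome 12 (CHLRE_12g505500v5) had 7 counts in GR50 and 16 in XR50, and its ratio of -1.27 had an interval from -2.79 to 0.10. The 4 ORFs with too few reads to be compared were CrADG, with 5 counts in GR50 and 9 in XR50, CrZSP2, with 10 and 6 in the same libraries, the CrHTR2 copy on chromosome 6, with 0 and 2, and CrVMPL1, with 1 and 0. No difference between the types was detectable for them at this depth.

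**Figure D4:**
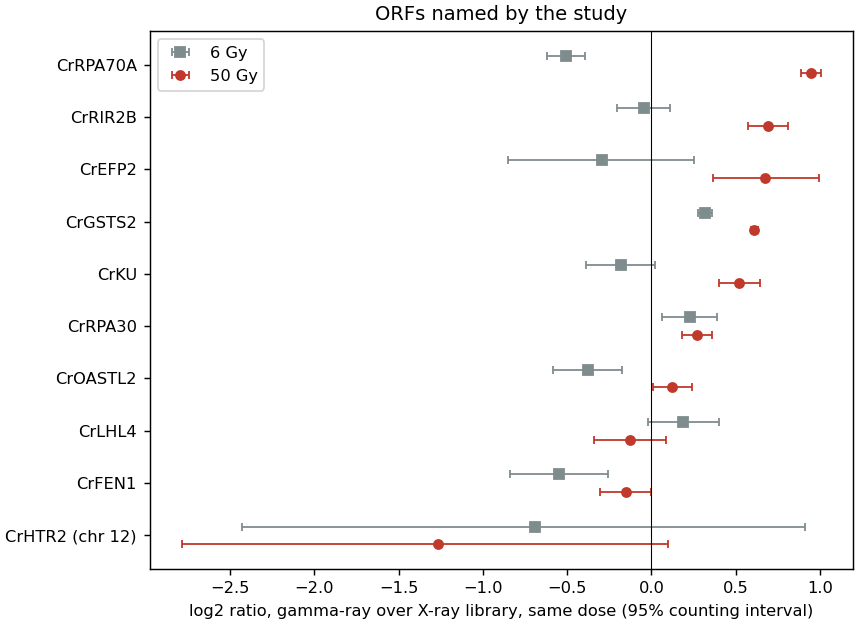
Log2 ratio of the γ-ray over the X-ray library (horizontal axis) for 10 ORFs named by the study, at 6 Gy (grey squares) and 50 Gy (red circles), 1 library per condition, with exact 95% counting intervals. CrRPA70A is at -0.51 at 6 Gy and 0.94 at 50 Gy, and CrFEN1 lies under 0 at both doses.

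The difference of the ratios between the doses was also set against all genes. The ratio at 50 Gy minus that at 6 Gy lay above 0 beyond counting error for 7 of the 10 ORFs, against 27.9% of all genes, under 0 for 1 (CrLHL4, -0.32), against 25.9%, and held 0 for 2. It was 1.45 (1.33 to 1.58) for CrRPA70A, 0.97 (0.37 to 1.58) for CrEFP2 and 0.74 (0.55 to 0.93) for CrRIR2B. An interval above 0 at 50 Gy together with an interval under 0 at 6 Gy, as found for CrRPA70A and CrOASTL2, was seen in 773 of the 4339 genes above 0 at 50 Gy (17.8%). It was therefore not confined to the named ORFs.

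Genes that differed between the types tended to sit side by side on the chromosomes. Over 11584 pairs of adjacent genes that were both compared, a gene higher in GR50 was followed by another higher one in 283 of 1338 cases (21.2%), against 11.6% of all genes. A gene lower in GR50 was followed by another lower one in 119 of 855 cases (13.9%), against 7.49%. The genes of a pair overlapped in only 3 and 2 of these cases. Uninterrupted runs of 3 or more genes numbered 36 on the higher side and 16 on the lower side, with 5 genes in the longest. How many runs a random gene order would give was not tested, and some runs held genes just above the filter of 10 counts.

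The run with the highest median ratio among those of at least 4 genes spanned chr13:1113556-1129369 and included CHLRE_13g569450v5. Its 4 genes had log2 ratios from 1.46 to 6.17 at 50 Gy and from 1.79 to 5.25 at 6 Gy. Their summed level was 1004 CPM in GR50 and 216 CPM in XR50, 2084 CPM in GR6 and 221 CPM in XR6, and 442 CPM in the mock. All 4 genes were thus higher after γ-rays at both doses. The sum was larger in GR6 than in GR50, whereas CHLRE_13g569450v5 itself was at 64.5 CPM in GR6 and 71.2 CPM in GR50. Of the 3 runs of 5 higher genes, that with the highest median ratio lay at chr10:1085080-1128985, with ratios from 1.199 to 1.95 at 50 Gy and from -1.76 to 1.25 at 6 Gy. It summed to 30.4 CPM in GR50 and 8.96 CPM in XR50, 15.1 CPM in GR6 and 11.2 CPM in XR6, and 9.45 CPM in the mock. The only run of 5 lower genes, at chr9:1723585-1747190, summed to 461 CPM in GR50 and 1374 CPM in XR50, 599.6 CPM in GR6 and 1273 CPM in XR6, and 1257 CPM in the mock. There, both X-ray libraries were near the mock and both γ-ray libraries under it, and 1 of its pairs overlapped. By chromosome, the share of higher genes ranged from 9.05% on chromosome 3 to 17.5% on chromosome 15, where 28 of only 160 genes were higher (exact 95% interval 11.95% to 24.3%), and that of lower genes from 5.56% on chromosome 1 to 10.1% on chromosome 8.

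The ratio also moved with the length of the gene, measured from its annotated start to its end with introns, and it did so in opposite ways at the 2 doses. With the genes divided into 10 length classes of similar size, the class of the shortest genes (362 to 2146 bp) was the first. Its median log2 ratio was -0.20 at 50 Gy and 0.11 at 6 Gy. In the class of the longest genes (10786 to 108752 bp), it was 0.07 at 50 Gy and -0.30 at 6 Gy. Among the shortest genes, 7.99% were more than 2-fold higher and 12.3% were lower in GR50, against 10.6% higher and 3.93% lower among the longest. The genes higher in GR50 had a median length of 4842 bp, those lower 3910 bp and all genes 4686 bp. Across genes, the Spearman correlation of length and ratio was 0.10 at 50 Gy and -0.17 at 6 Gy. At 50 Gy, the signs were the same at low, medium and high counts, and above a mean of 1000 counts the medians were -0.20 for the shortest and 0.13 for the longest genes. At 6 Gy, the median of the shortest genes was -0.04 under a mean of 200 counts and that of the longest was -0.36.

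Read classes outside the genes moved in the same way. Reads with more than one alignment made up 3.73% of those listed in GR50 and 3.02% in XR50, 3.06% in GR6 and 4.39% in XR6, and 2.95% in the mock. The share of reads without an alignment was 37.7% in GR50 and 39.5% in XR50, 41.8% in GR6 and 32.2% in XR6, and 41.3% in the mock. GR50 at 50 Gy and XR6 at 6 Gy were thus the libraries with the higher ratio of long genes, more multiple alignments and fewer unaligned reads. The part of these library differences in the ratios of single genes was not tested. Centring the ratio within each length class, a setting added after the data had been seen, left 1623 genes higher and 1036 lower at 50 Gy, of which 1550 and 974 were among the 1618 and 1048.

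**Figure D5:**
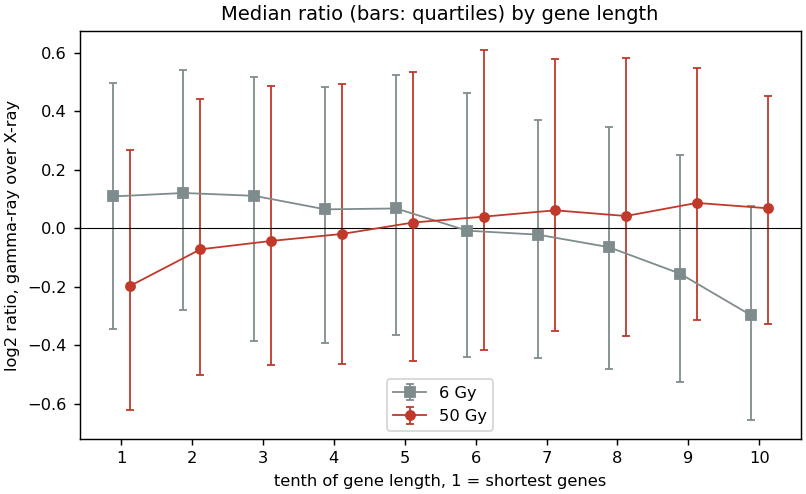
Median log2 ratio of the γ-ray over the X-ray library (vertical axis, bars from the lower to the upper quartile of genes) by length class of the genes (horizontal axis, from 1 for the shortest to 10 for the longest), at 6 Gy (grey) and 50 Gy (red). The medians run from 0.11 to -0.30 at 6 Gy and from -0.20 to 0.07 at 50 Gy, with quartiles that overlap throughout.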

How the data were processed

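RNA-Seq counts of 5 libraries were used, 1 for each of GR50, XR50, GR6, XR6 and the mock. The authors prepared stranded total RNA libraries, trimmed the paired-end reads with Trimmomatic 0.36, mapped them with HISAT2 2.2.1 and counted them with HTSeq 0.11.3, per the labels and the study's methods. The deposited values are raw counts of 17742 genes without normalization. The methods name 2 genome versions, and all 17742 IDs were found in the NCBI annotation of version 5.5, whose positions are used. The rows of 5 counters of unassigned reads, 48.1% of the reads listed for GR50 and 48.7% for XR50, were left out of the totals. The methods describe 3 biological replicates, whereas 1 column per condition was analysed, and whether it pools them is not given in the sources used here. The strand setting of the counting is likewise not given, so that how reads of overlapping or antisense genes were assigned is not known. Reads counted as ambiguous, which were left out, made up 0.56% of those listed in GR50 and 0.64% in XR50.

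Ratios were those of TMM-scaled counts per 1000000 reads (CPM, edgeR 4.0.16, R 4.3.3) with factors from the 2 libraries of each pair and without a prior count. Levels in CPM were scaled with TMM over all 5 libraries. Counts of 3 or fewer were set to a floor of 3, and no ratio was formed where both were at the floor. Exact Clopper-Pearson 95% intervals of the 2 counts were computed with scipy 1.17.1. PCR reads are not independent molecules, so that intervals and floors cover counting error only. The interval of a difference between doses used the normal approximation of log counts. Genes were compared where the mean of both libraries reached 10 counts, and were counted as different past 2-fold. Ratio, interval and counting were tested on simulated data.

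The genes named are the ORFs of the study's table, except 1 that is not reported here, and the first 2 IDs per direction by interval limit among genes whose mean reached 50 counts, because the reference gives no names. 3 further IDs were named after their values were seen, as stated. The comparison, the lists and the rule were chosen with earlier results of these data known. Alternatives were library totals, the size factors of DESeq2 1.42.0, TMM over 5 libraries, other count filters, a 4-fold threshold, a prior count of 1, thinned counts, whole intervals and, added later, centring by gene length. The 20 gene lists by symbol and the promoter motifs were not analysed here, since no symbols or sequences were at hand.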

Additional observations from a re-analysis of the deposited data

Results flagged for a closer look

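For 2 of the named ORFs, the type with the higher level was opposite at the 2 doses, each beyond counting error. The same was seen in 17.8% of the 4339 genes whose interval lay above 0 at 50 Gy, so that it was not unusual. With 1 library per condition, the difference between the doses was not tested against replicates. Both ORFs were among those the study measured by RT-qPCR, where it reported that radiation type rarely affected the levels. For CrRPA70A, the log2 ratio of γ-ray over X-ray at 50 Gy minus that at 6 Gy was 1.45 (1.33 to 1.58), since GR50 was higher than XR50 and GR6 was lower than XR6. For CrOASTL2, this difference was 0.50 (0.27 to 0.73).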

How the results depend on the processing

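With 1 library per condition, no replicate could be left out. No paired analysis was possible because each condition has 1 library and no test was run. The numbers of 1618 higher and 1048 lower genes stayed within 1.5 times under library totals, size factors of DESeq2, TMM over 5 libraries, no filter, a prior count of 1, thinned counts and centring by length. They were 346 and 167 with a 4-fold threshold and 859 and 401 with whole intervals past 2-fold, and with a mean of at least 50 counts 649 genes were lower and 1233 higher, each by construction fewer. With library totals, the median ratio of all genes was 0.0427, and 69.7% of the higher and 87.3% of the lower genes had the same direction at 6 Gy. With a mean of at least 50 counts, these shares were 78.8% and 92.3%. Library totals also rescale the ratios at 6 Gy. The shares of all genes higher or lower in GR6 were not computed under these settings. Whether the changed shares follow those of all genes was therefore not tested. No direction changed among 80 recomputed ratios of 16 named genes, and 76 stayed within counting error. The 4 others were CrGSTS2, at 0.65 with library totals, 0.64 with TMM over 5 libraries and 0.66 centred by length, and CrRPA70A, at 0.88 centred by length. The alternatives for gene lists were not run, because the reference names no genes. Depth limits ratios under a mean of 50 counts, where the median interval was 1.83 wide on the log2 scale, against 0.20 between 1000 and 5000 counts.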

Other observations

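Some genes differed more than 2-fold between the radiation types at 6 Gy and less at 50 Gy. More than 2-fold higher in GR6 than in XR6, but within 2-fold at 50 Gy, were 540 genes, whose median level was 5.80 CPM in GR6 and 2.24 CPM in XR6, 4.07 CPM in GR50 and 3.05 CPM in XR50, and 4.20 CPM in the mock. More than 2-fold lower in GR6 were 673 genes that were within 2-fold at 50 Gy, with a median of 2.08 CPM in GR6 and 5.18 CPM in XR6, 3.33 CPM in GR50 and 3.94 CPM in XR50, and 2.76 CPM in the mock. Their median log2 ratio at 50 Gy was 0.33 for the 540 genes and -0.26 for the 673 genes, in the same directions as at 6 Gy. The 540 genes had a median length of 3909 bp and the 673 genes one of 5435 bp.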
